A study of Mus musculus with 48 samples.

Results

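The cytochrome P450 genes of families 1 to 3 were examined in mouse liver, taking the protein coding genes whose symbol starts with Cyp1, Cyp2 or Cyp3 and whose mean count over the 48 libraries was at least 10. This left 40 genes, from 60 protein coding genes of these families in a table of 54532 genes. Cyp1b1 (mean count 16.1), Cyp2d11 (28.5), Cyp2g1 (30.2) and Cyp1a1 (37.0) lay just inside the limit, and Cyp2s1 (7.29), Cyp2d12 (6.06), Cyp3a16 (5.60) and Cyp2t4 (1.77) lay just outside it. All 40 passed the filter on low counts of the tests below. These enzymes are haem proteins of the endoplasmic reticulum that insert an oxygen atom into drugs, toxins, steroids and fatty acids, with electrons passed on by the reductase POR. Liver is their main site, where the receptors AHR, CAR and PXR switch on members of families 1, 2 and 3 when foreign compounds arrive, growth hormone pulses set sex differences among family 2 genes, and the PAR bZIP factors DBP, TEF and HLF link several of them to the circadian clock.

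RNA came from livers of male wild-type C57BL/6 mice aged 8 to 10 weeks. One arm, control, stayed on a stable cycle of 12 h light and 12 h dark, and the other, phase shift, went through a single advance of the light cycle by 6 h. Livers were taken every 4 h from the middle of day 6 to the middle of day 7 after the shift, and each arm has 4 libraries at each of ZT0, ZT4, ZT8, ZT12, ZT16 and ZT20 (ZT, hours after lights-on), which makes 12 groups. The arms follow the sample titles, since the treatment field names the phase shift for all 48 samples, and the labels do not say whether ZT in the shifted arm counts from the new lights-on. The labels do not state that the 4 libraries of a group come from separate animals, so the p-values measure the spread between these samples, and a liver stands here for 1 library. Each library held between 15370303 and 19639753 counts. The median mitochondrial share was 7.11%. It was over 9.54% in 8 libraries, called here libraries of high mitochondrial share: in control replicate 1 of ZT4, replicate 2 of ZT8, replicate 2 of ZT12 and replicate 1 of ZT20, and in the shifted arm replicates 1 and 2 of ZT0 with replicates 2 and 3 of ZT4. Hepatocyte markers summed to 63614 to 131799 CPM (counts scaled to the TMM-normalised library total), whereas 3 kidney markers stayed at 0 to 0.133 CPM.

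The 40 genes held a mean of 2.56% of all counts per library (SD 0.369, n = 48), with a range of 1.57 to 3.35%. The share was 2.56 ± 0.352% (SD, n = 24) in control and 2.56 ± 0.394% (SD, n = 24) after the shift. In bulk liver, fewer cells of a type and less RNA per cell cannot be told apart.

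Levels of different genes were compared in FPKM, which takes gene length into account. Cyp2e1, which oxidises ethanol, acetone and paracetamol, stood at 3180 ± 797 FPKM (SD, n = 48) and took 30.9% of the FPKM of the 40 genes. It was followed by Cyp3a11, the major PXR-responsive drug oxidase, at 906 ± 239 FPKM, Cyp2a5, the coumarin hydroxylase, at 680 ± 334 FPKM, Cyp2f2, known for naphthalene oxidation, at 585 ± 102 FPKM, and Cyp2d9, a testosterone hydroxylase of male liver, at 544 ± 99.2 FPKM. From Cyp3a11 down to Cyp2d9, each gap between neighbours in this order was smaller than the larger of their 2 SDs over libraries, whereas Cyp2e1 stood above Cyp3a11 by more than either SD. Cyp2c29, Cyp2d10 and Cyp1a2, the caffeine oxidase, followed at 484, 482 and 476 FPKM. By subfamily, the 13 Cyp2c genes together took 20.4% of the FPKM, the 6 Cyp2d genes 15.1%, the 4 Cyp3a genes 12.4% and the 4 Cyp2a genes 8.23%. At the other end were Cyp1b1 at 0.183 FPKM, Cyp1a1, the classic AHR target, at 0.777 FPKM, and Cyp2g1, best known from olfactory mucosa, at 0.828 FPKM.

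**Figure D1:**
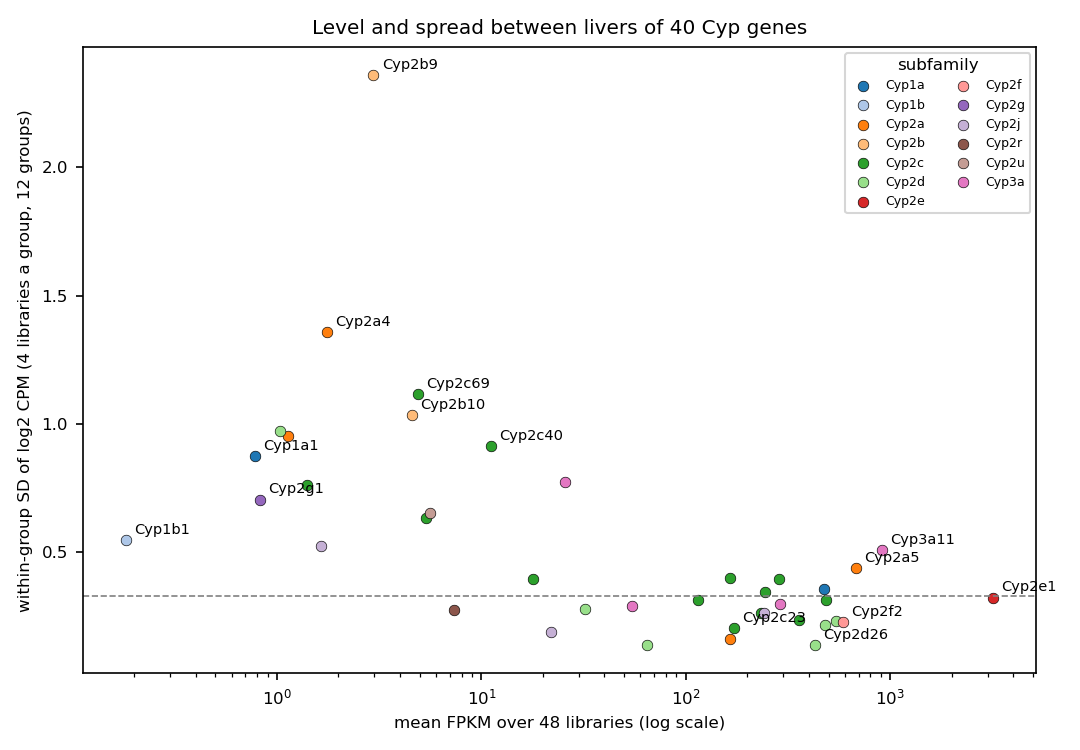
Mean FPKM of each of the 40 genes over 48 libraries (x axis, log scale) against the SD of its log2 CPM between livers of the same group (y axis), coloured by subfamily, with the median SD of all genes tested as a dashed line. Cyp2e1 has the highest level at 3180 FPKM, and Cyp2b9, Cyp2a4, Cyp2c69 and Cyp2b10 have the widest spread, with SDs of 2.36, 1.36, 1.12 and 1.03.

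Several of these genes sit beside near-copies in gene clusters, and upstream sequence and level were compared in 7 pairs of copies. Cyp2a5 (ENSMUSG00000005547, chromosome 7, 26835305 to 26843548 of mm10, plus strand) and Cyp2a4 (ENSMUSG00000074254, chromosome 7, 26307169 to 26315088, plus strand), a testosterone hydroxylase with higher levels in females, are shown here with the 250 bases before their RefSeq start sites, at chr7:26835089-26835338 and chr7:26306942-26307191 of GRCm38.p6. Capitals mark bases that differ between the pair or have no partner at an end.
Cyp2a5: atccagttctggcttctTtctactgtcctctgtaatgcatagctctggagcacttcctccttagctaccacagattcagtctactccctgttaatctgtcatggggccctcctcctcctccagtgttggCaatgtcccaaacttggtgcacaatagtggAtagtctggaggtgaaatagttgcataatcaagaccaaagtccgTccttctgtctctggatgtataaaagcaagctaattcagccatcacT
Cyp2a4: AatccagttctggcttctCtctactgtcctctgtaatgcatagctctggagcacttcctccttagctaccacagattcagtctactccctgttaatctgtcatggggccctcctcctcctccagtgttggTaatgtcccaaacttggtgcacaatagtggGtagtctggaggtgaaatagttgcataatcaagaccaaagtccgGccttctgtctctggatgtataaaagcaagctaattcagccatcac
In these windows 245 of 249 aligned positions were identical (98.4%). The level of Cyp2a5 was 386 times that of Cyp2a4 (680 against 1.76 FPKM). Wide differences in level were also seen for Cyp3a25 and Cyp3a59 (95.6% identical, 288 and 25.7 FPKM), Cyp2a12 and Cyp2a22 (88.8%, 165 and 1.13 FPKM) and Cyp2d10 and Cyp2d11 (80.4%, 482 and 1.03 FPKM). The other 3 pairs were closer in level, Cyp2c40 and Cyp2c69 (98.6%, 11.1 and 4.88 FPKM), Cyp2c67 and Cyp2c68 (91.7%, 165 and 115 FPKM) and Cyp2c37 and Cyp2c50 (86.3%, 285 and 359 FPKM). Reads of near-copies can be assigned to the wrong gene. Of the 100-base stretches of the GENCODE transcript, 44.1% were shared with another gene in Cyp2c40, 36.3% in Cyp2c69, 23.7% in Cyp2c67 and 19.8% in Cyp2c68. The share was 14.8% in Cyp2d10, 14.4% in Cyp2a5, 12.2% in Cyp2d11 and 11.2% in Cyp2a4. The values of these 8 are uncertain, and the share does not give the size of the error. The error can be larger for Cyp2a4 and Cyp2d11, whose copies Cyp2a5 and Cyp2d10 are far more abundant. In 17 of the 40 the share was 0%, Cyp2c23, Cyp2j5, Cyp2j6, Cyp2j9, Cyp3a11 and Cyp3a13 among them. Whether counting used strand is not given in the sources used here, and overlapping genes, on either strand, held at most 5.34% of the count of a member.

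Livers of the same group differed in some of these genes by more than 10-fold. The median within-group SD of log2 CPM was 0.373 for the 40 genes and 0.327 for all 14555 genes tested. It was widest for Cyp2b9 (2.36), a gene of female liver, for Cyp2a4 (1.36), Cyp2c69 (1.12) and Cyp2b10 (1.03), the classic CAR target, and narrowest for Cyp2d26 (0.135) and Cyp2d22 (0.136). At ZT4 Cyp2b9 stood at 0.0658, 0.991, 3.78 and 0.814 CPM in control and at 85.0, 1.72, 0.199 and 0.886 CPM after the shift, and at ZT8 at 2.63, 0, 73.5 and 0.499 CPM in control and 0.473, 4.80, 0.349 and 0.588 CPM after the shift. A single liver made the mean in each case, phase shift replicate 1 at ZT4 and control replicate 3 at ZT8, and Cyp2b9 was at 0 counts in 4 libraries. At ZT20 the liver of phase shift replicate 2 held 33.2 CPM of Cyp2b9 against 0 to 7.73 in the other 3. The same liver had 39.8 CPM of Cyp2a4, against 0.697, 4.14 and 2.99, and 45.1 CPM of Cyp2b10, against 5.57, 5.63 and 7.98. In 8 of the 12 groups 1 library had the highest value of both Cyp2a4 and Cyp2b9, in 7 of both Cyp2b9 and Cyp2b10, and in 10 of both Cyp2c40 and Cyp2c69, which share sequence. These counts are a description without a test.

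The liver of phase shift ZT20 replicate 2 stood apart in both directions. It had the lowest of all 48 values for 13 of the 40 genes, among them Cyp2e1, Cyp1a2, Cyp2c23, Cyp2c37, Cyp2c50, Cyp2c54, Cyp2d9, Cyp2d26 and Cyp2f2, and the highest for 6, namely Cyp2a4, Cyp2a22, Cyp2c39, Cyp2c55, Cyp3a11 and Cyp3a59. Its mitochondrial share was 7.01%, near the median. Control ZT20 replicate 1 had the highest of 48 for 7 genes, Cyp2a12, Cyp2c50, Cyp2e1, Cyp2j5, Cyp2j6, Cyp2r1 and Cyp3a13, at a mitochondrial share of 12.1%. Cyp3a11 also varied between livers at ZT20, at 5706, 4372, 5921 and 3265 CPM in control and 3222, 7134, 930 and 4213 CPM after the shift.

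Daily rhythm was tested with a 24 h cosine curve in each arm (edgeR quasi-likelihood test, Benjamini-Hochberg adjustment over 14555 genes, threshold 0.05). In control 9 of the 40 genes (22.5%) had a rhythm, against 27.3% of all genes tested, and after the shift 13 (32.5%), against 28.2%. Both shares were near the background. The 6 genes called in both arms were Cyp2a5, Cyp2c23, Cyp2e1, Cyp2g1, Cyp2j9 and Cyp3a13. Another 3 were called in control alone, Cyp1a1, Cyp2d26 and Cyp2j5, and 7 after the shift alone, Cyp2b10, Cyp2c38, Cyp2c70, Cyp2d9, Cyp2d11, Cyp2d22 and Cyp2d40. A call in 1 arm does not show a difference, and in the direct test of the rhythm between arms none of the 40 passed (0.186% of all genes did), while 8 had an unadjusted p under 0.05 (20.0% against 19.3% of all genes). DESeq2 called 1 and limma on log2 CPM none. Without the 8 libraries of high mitochondrial share, a rhythm was called in 9 of the 40 genes in control and 16 after the shift. The share of all genes in that fit is not given here, so these counts show no gain or loss among the members.

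Among the genes with a rhythm in both arms, the drug and toxin oxidases Cyp2a5 and Cyp2e1 had the highest levels. Cyp2a5 was at 751, 313, 690 and 589 CPM at ZT0 and at 1965, 2158, 2056 and 1852 CPM at ZT12 in control, and at 401, 454, 391 and 872 CPM at ZT0 and 1715, 1987, 2006 and 2855 CPM at ZT12 after the shift. No library at ZT0 of either arm reached any at ZT12. Its fitted peak was at ZT 13.4 in control (95% interval 12.2 to 14.5, log2 amplitude 1.04, adjusted p = 2.41e-06 in edgeR) and at ZT 12.3 after the shift (11.3 to 13.2, log2 amplitude 1.00, adjusted p = 2.35e-06 in edgeR), and the fitted peak-to-trough ratio was 4.24 and 4.00. The difference of the peaks was -1.08 h (-2.52 to 0.37), an interval that includes 0.

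Cyp2e1 (ENSMUSG00000025479, chromosome 7, 140763739 to 140774987, plus strand) stood in control at 5311, 5364, 6405 and 6798 CPM at ZT0, at 4942, 4260, 5023 and 5848 CPM at ZT4, at 6017, 3756, 7912 and 8214 CPM at ZT8, and at 9838, 6780, 7353 and 8033 CPM at ZT12. After the shift it stood at 4147, 4955, 5713 and 5248 CPM at ZT0, at 5639, 5669, 6639 and 8132 CPM at ZT4, at 8400, 8544, 7473 and 9505 CPM at ZT8, and at 8964, 9514, 7799 and 8865 CPM at ZT12. At ZT20 the values were 10119, 7535, 7249 and 5245 CPM in control and 6438, 2312, 5674 and 6602 CPM after the shift, so the arms overlapped there, with phase shift replicate 2 lowest and control replicate 1 highest of all 48 libraries. The fitted peak was at ZT 15.4 in control (13.5 to 17.4, adjusted p = 0.00967 in edgeR) and ZT 10.9 after the shift (9.37 to 12.5, adjusted p = 0.00021 in edgeR), -4.50 h (-6.94 to -2.06). This difference was -3.75 h (-5.90 to -1.59) without phase shift ZT20 replicate 2 and -2.98 h (-5.60 to -0.37) without the 8 libraries of high mitochondrial share. Marker genes of some cell types had earlier fitted peaks after the shift as well. They were all 5 hepatocyte markers (median -5.69 h, from -7.46 to -4.28 h), all 9 Kupffer cell markers (-6.16 h, from -8.26 to -5.79 h) and all 6 of sinusoidal endothelium (-5.28 h, from -7.85 to -3.76 h). Of 5 cholangiocyte markers, 4 were earlier and 1 later (median -1.02 h, from -4.41 to 10.5 h). Of 8 markers of stellate cells and fibroblasts, 2 were earlier and 6 later (median 3.58 h, from -10.9 to 11.9 h). On a 24 h cycle, differences as wide as those of Spp1 (cholangiocyte), Reln, Colec11 and Lrat (stellate cell) have no clear direction. This limits the counts and medians of these 2 lists. No hepatocyte or Kupffer cell marker had a called rhythm in either arm, 1 of the 6 endothelial markers had one in control, and none of the markers passed the test of rhythm between arms. The part of these cells in the peaks of Cyp2e1 and Cyp2c23 was not tested. The test of the rhythm between arms, which covers all genes, gave Cyp2e1 an adjusted p of 0.1535 in edgeR, over the threshold. At no single time did Cyp2e1 pass, with a smallest adjusted p of 0.461 at ZT8 (edgeR). At ZT16, the sampled time nearest its control peak, the log2 difference between arms was 0.05 (SE 0.21).

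The other genes with a rhythm in both arms had lower levels. Cyp3a13, a family 3 enzyme of liver and intestine, stood at 303, 221, 243 and 161 CPM in control and 192, 141, 198 and 164 CPM after the shift at ZT20, and at 149, 89.7, 166 and 135 and at 139, 146, 118 and 126 CPM at ZT8. Its peaks at ZT 18.5 and ZT 16.8 differed by -1.70 h (-4.11 to 0.71), and by 0.71 h in the other direction without the libraries of high mitochondrial share. Cyp2g1 rose from a mean of 0.634 ± 0.707 CPM (SD, n = 4) at ZT0 to 2.76 ± 1.06 CPM at ZT8 in control and from 1.28 ± 0.732 to 4.48 ± 1.23 CPM after the shift, with peaks at ZT 8.97 and ZT 8.55 and the largest fitted amplitudes among the called genes, 1.35 and 1.003 on the log2 scale. Low counts limit its precision. Cyp1a1, called in control alone at an adjusted p of 0.0173, had a log2 amplitude of 0.53 whose interval (-0.14 to 1.19) includes 0. Cyp2j9 had peaks at ZT 5.73 and ZT 4.25, and its highest values, 18.4 CPM in control ZT8 replicate 2 and 13.1 CPM in control ZT4 replicate 1, were in libraries of high mitochondrial share. Its rhythm in control had an adjusted p of 0.00178, and of 0.0683 without those libraries (edgeR).

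In the epoxygenase gene Cyp2j5, which makes signalling epoxides from arachidonic acid, the control libraries stood at 794, 679, 691 and 653 CPM at ZT20 and at 544, 346, 495 and 505 CPM at ZT12, with no overlap. After the shift the values were 668, 428, 717 and 611 CPM at ZT20 and 574, 599, 536 and 522 CPM at ZT12, which overlapped. The control peak was at ZT 20.7 with a log2 amplitude of 0.29 (0.14 to 0.44, adjusted p = 0.00975 in edgeR), and the call was lost without the libraries of high mitochondrial share (adjusted p = 0.0879). For Cyp2d26, in control alone, this p was 0.0809 against 0.0229 with all libraries. After the shift, Cyp2c70, which makes the muricholic acids of mouse bile, peaked at ZT 23.3 (adjusted p = 2.45e-05 in edgeR), Cyp2c38 at ZT 3.17, Cyp2d9 at ZT 11.1, Cyp2d11 at ZT 12.1, Cyp2d22 at ZT 11.8, Cyp2d40 at ZT 17.5 and Cyp2b10 at ZT 19.4. Against control fits that were not called, the peaks of Cyp2c70 and Cyp2d40 were later, by 3.38 h (0.78 to 5.99) and 6.43 h (1.79 to 11.1). Neither passed the test of the rhythm between arms (adjusted p = 0.163 and 0.181 in edgeR). For Cyp2b10, Cyp2c38, Cyp2d9, Cyp2d11 and Cyp2d22 the interval of the peak difference includes 0. When 1 library was left out in turn, the call of a rhythm was lost in 12 of 48 fits for Cyp2b10, 4 for Cyp2d22, 2 for Cyp2d40 and, in control, 2 for Cyp2c23, and in none for the other calls.

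**Figure D2:**
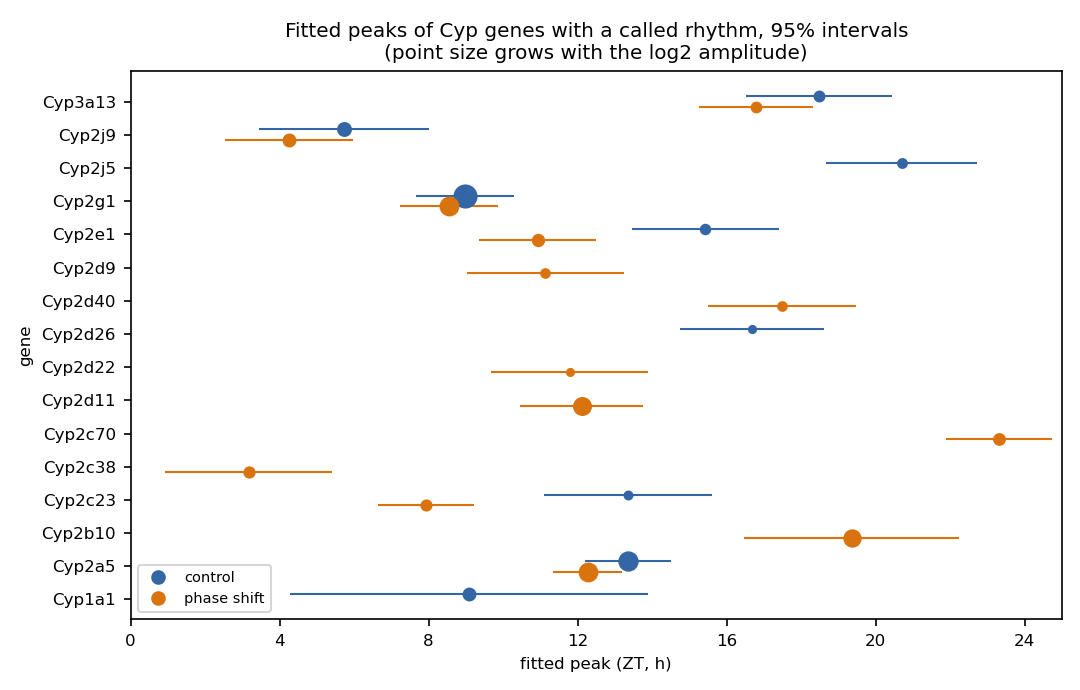
Fitted peak time in ZT hours (x axis) with its 95% interval, for each gene (y axis) with a called rhythm, drawn for the arm or arms in which it was called, control in blue and phase shift in orange, with larger points for larger log2 amplitudes. The intervals of the 2 arms do not meet for Cyp2c23 and Cyp2e1.

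**Figure D3:**
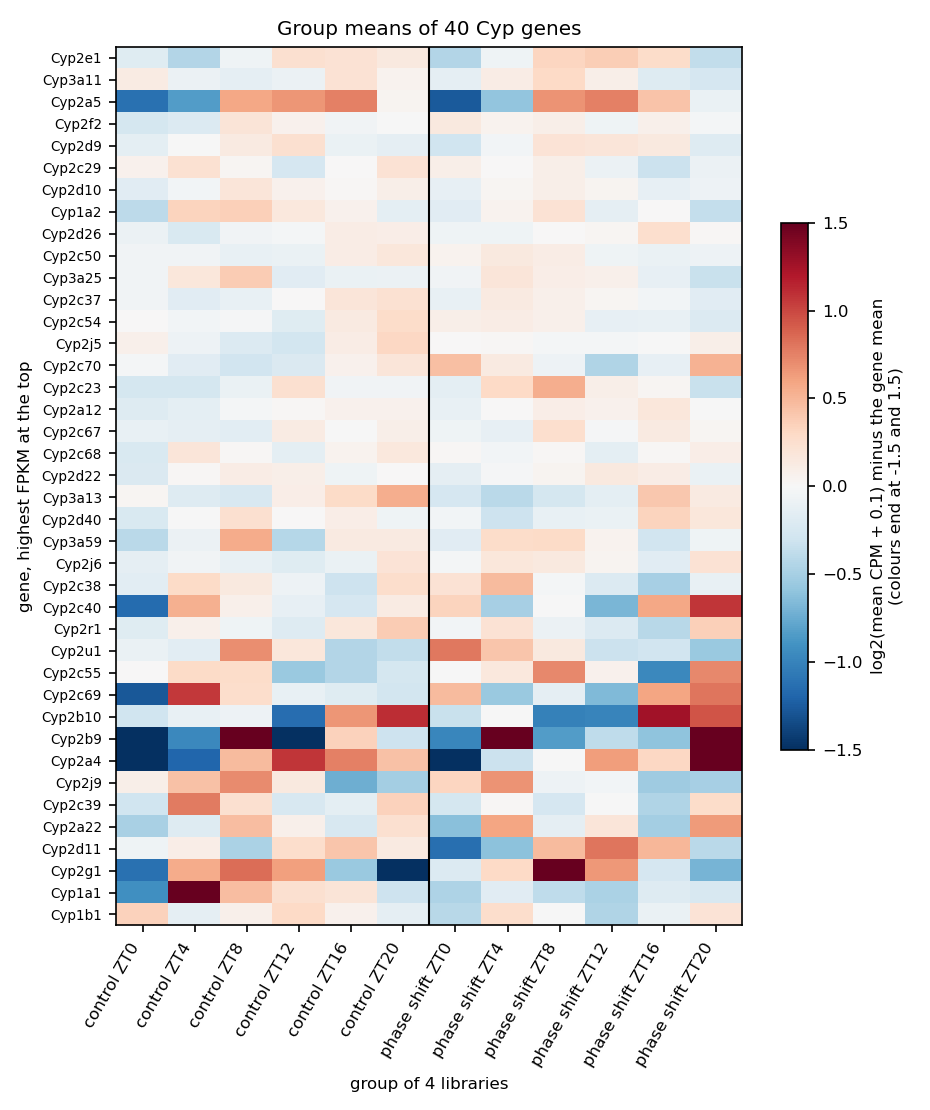
Group means of the 40 genes (y axis, highest FPKM at the top) in the 12 groups of 4 libraries (x axis), as log2 of the mean CPM plus 0.1 minus the gene's own mean, with blue below and red above it. Cyp2a5 runs from blue at ZT0 to red at ZT12 in both arms, and Cyp2b9 and Cyp2a4 show extreme cells that rest on single livers.

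Averaged over the 6 times, none of the 40 genes differed between arms (0% of all genes tested did). At an unadjusted p under 0.05 there were 6 (15.0%, against 6.45% of all genes), and DESeq2 and limma on log2 CPM called none. The smallest adjusted p was 0.541, for Cyp2c23. The log2 differences ran from -0.67 to 0.69 with a median of 0.01, and 21 genes were higher and 19 lower after the shift. The lowest and highest, of Cyp1a1 and Cyp2b9, include times at which a single liver made the group mean, as given below. After Cyp2c23 (log2 difference 0.16, SE 0.06), the smallest p-values belonged to Cyp1a1 (-0.67, SE 0.28), Cyp2j6 (0.13, SE 0.05), Cyp2g1 (0.49, SE 0.22) and Cyp3a13 (-0.18, SE 0.08), none of which passed.

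At single times, 1 of the 40 genes was called, Cyp2c23 at ZT8, higher after the shift (0.0137% of all genes were called higher at ZT8 and 0.117% lower). Cyp2c23 (ENSMUSG00000025197, chromosome 19, 44005022 to 44029208, minus strand) encodes an epoxygenase of arachidonic acid. At ZT8 it stood at 298, 346, 409 and 327 CPM in control and 585, 552, 499 and 519 CPM after the shift, and at ZT4 at 342, 241, 317 and 328 CPM and at 400, 453, 483 and 477 CPM. All 4 shifted livers lay above all 4 control livers at both times. At ZT0 it stood at 255, 351, 288 and 333 CPM in control and 402, 297, 358 and 276 CPM after the shift, and at ZT16 at 421, 349, 351 and 297 CPM and at 426, 360, 353 and 366 CPM, with overlapping groups. At ZT12 the order of the means was the opposite, 436 ± 60.03 CPM (SD, n = 4) in control and 391 ± 29.0 CPM after the shift, and at ZT20 they were 354 ± 42.8 and 293 ± 65.4 CPM, with overlap at both times.

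The log2 difference of Cyp2c23 was 0.64 at ZT8 (SE 0.14, adjusted p = 0.0423 in edgeR) and 0.56 at ZT4 (SE 0.14, adjusted p = 0.0797 in edgeR). The call at ZT8 remained in 23 of 48 fits that leave out 1 library, and was lost in 7 of the 8 that leave out a ZT8 library and in 18 of the other 40, with log2 differences of 0.58 to 0.73 when a ZT8 library was left out and adjusted p-values up to 0.182 (without control replicate 2 of ZT8). It was also lost with a replicate block (adjusted p = 0.0513) and without the libraries of high mitochondrial share (adjusted p = 0.104, log2 difference 0.64). The peak of its fitted curve was at ZT 13.3 in control (11.1 to 15.6, log2 amplitude 0.21) and at ZT 7.93 after the shift (6.64 to 9.22, log2 amplitude 0.39), a difference of -5.41 h (-7.93 to -2.89), and of -5.00 h (-7.998 to -1.999) without the libraries of high mitochondrial share. The rhythm test between arms gave an adjusted p of 0.0514 and the test of the time course 0.0593 (edgeR), both just over the threshold. For the time course, none of the 40 passed (0.137% of all genes did), 6 had an unadjusted p under 0.05 (15.0% against 11% of all genes), and DESeq2 and limma on log2 CPM each called 1.

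Markers of other cell types had positive median log2 differences at ZT8, though none of them passed the test. The 9 Kupffer cell markers summed to 18.2 to 362 CPM in control and 140 to 655 CPM after the shift, with a median log2 difference of 0.68, the 6 markers of sinusoidal endothelium to 17.1 to 271 and 103 to 329 CPM, with 0.62, and the 8 of stellate cells and fibroblasts to 88.3 to 198 and 171 to 220 CPM, with 0.58. For the 5 cholangiocyte markers, at 14.6 to 43.9 and 36.9 to 42.9 CPM, it was 0.59. At ZT4 the median log2 difference was -0.33 for Kupffer cell markers, -0.32 for endothelium, 0.38 for stellate cells and fibroblasts and -0.31 for cholangiocytes, and for the 5 hepatocyte markers it was 0.05 at ZT4 and -0.23 at ZT8. Their part in the values of Cyp2c23 was not tested.

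**Figure D4:**
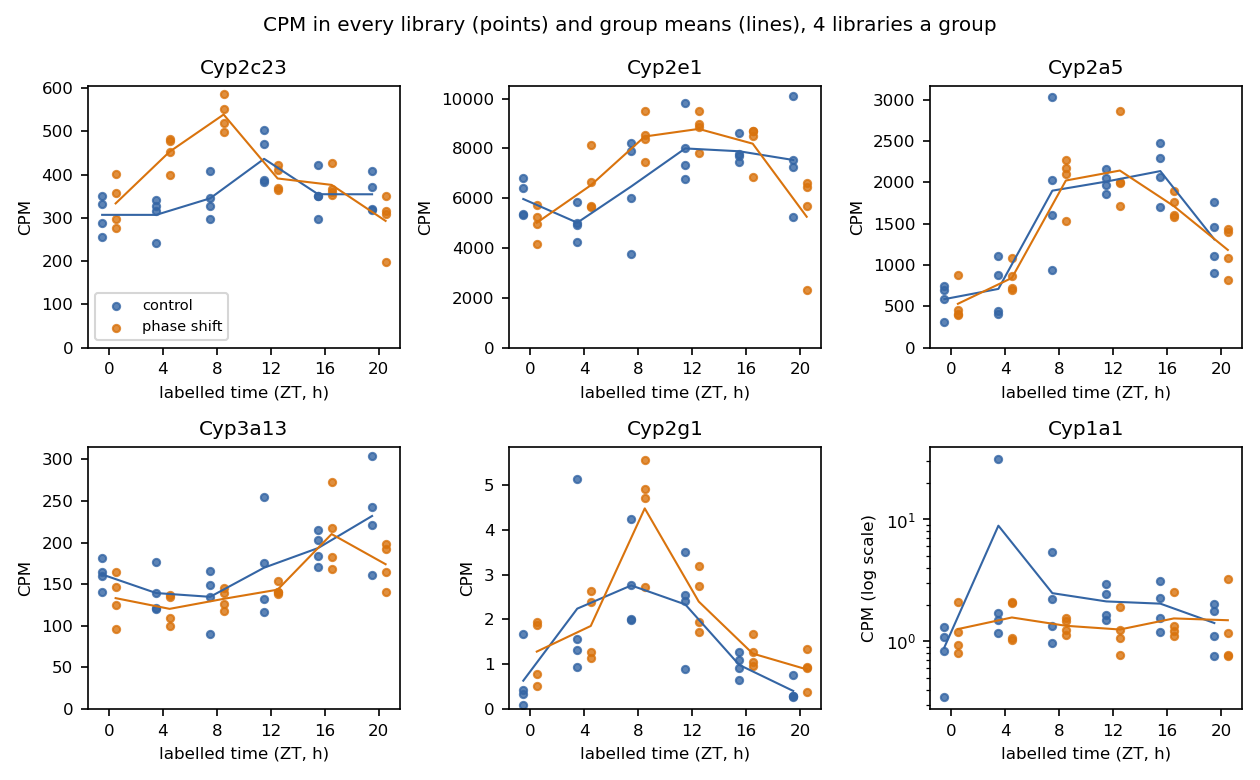
CPM of 6 genes in every library (points) and group means (lines) by labelled time in ZT hours, control in blue and phase shift in orange, 4 libraries a group, with a log scale for Cyp1a1 alone. The Cyp2c23 points of the shifted arm lie above all control points at ZT4 and ZT8, and 1 control liver stands at 31.2 CPM of Cyp1a1 at ZT4.

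At the other times no member was called. The counts at an unadjusted p under 0.05 were 4 at ZT0 (10.0%, against 7.37% of all genes), 4 at ZT4 (10.0%, against 9.21%), 3 at ZT8 (7.50%, against 11.7%), 0 at ZT12 (against 4.98%), 1 at ZT16 (2.5%, against 4.42%) and 5 at ZT20 (12.5%, against 7.33%). Of all genes, 0% were called at ZT0, ZT12 and ZT16 in either direction, 0.0275% higher and 0.0893% lower at ZT4, and 0.289% higher and 0.00687% lower at ZT20. DESeq2 called 2 members at ZT4, Cyp2c23 and Cyp1a1, and none at ZT0, ZT12, ZT16 and ZT20, where limma on log2 CPM called none as well. The median log2 difference of the 40 genes ran from -0.08 at ZT20 to 0.15 at ZT4, against medians of all genes from -0.015 to 0.005.

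Several of the largest fold differences rested on single livers. Cyp2b9 differed by 3.93 at ZT4 (SE 1.57, adjusted p = 0.388 in edgeR) and by -3.63 at ZT8 (SE 1.55, adjusted p = 0.378 in edgeR) on the log2 scale, and without the 1 liver that was high each time by -0.62 and 0.52. Cyp1a1 was at 1.71, 31.2, 1.17 and 1.503 CPM in control and 1.07, 2.12, 2.06 and 1.01 CPM after the shift at ZT4. The log2 difference was -2.51 (SE 0.67, edgeR adjusted p = 0.110) and became 0.10 without control replicate 2. Without control replicate 4 of the same time it was -2.85, with an adjusted p of 0.0393 in edgeR. Cyp2a4 at ZT20 had a log2 difference of 2.05 (SE 0.92), and of -0.14 without phase shift replicate 2.

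**Figure D5:**
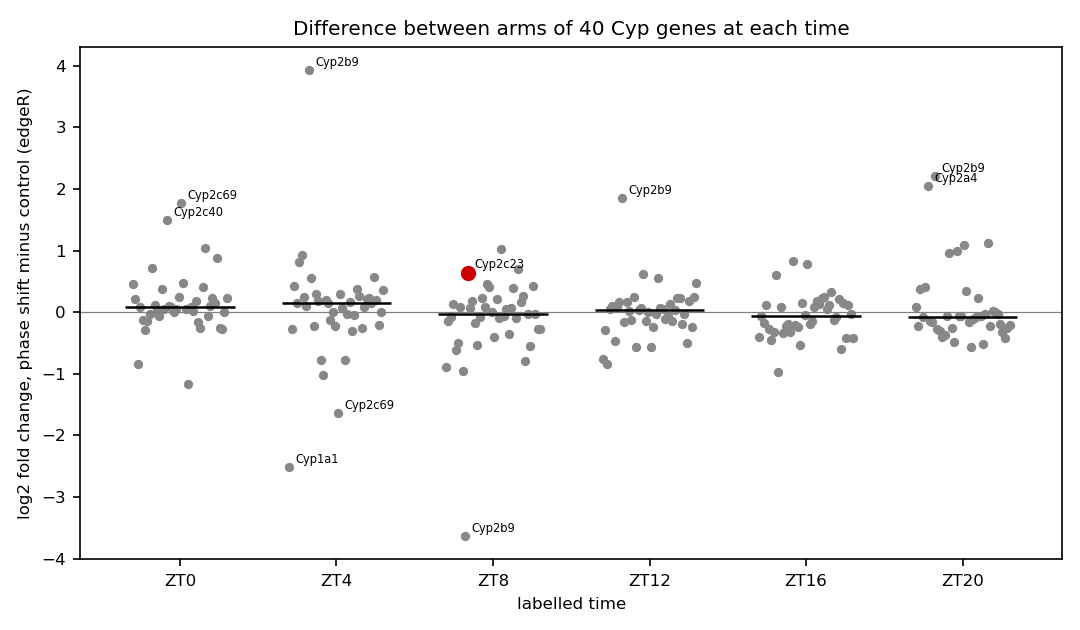
Log2 fold change, phase shift minus control (y axis, edgeR), of each of the 40 genes at each labelled time (x axis), with the median as a black line and the called gene as a red point. Cyp2b9 has the farthest points, 3.93 at ZT4 and -3.63 at ZT8, and the only called point is Cyp2c23 at ZT8.

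Some members had groups that did not overlap without passing the test. After the shift, 2 genes lay above all control livers at ZT0 (5.00%, against 1.76% of all genes), namely Cyp2c70 at 601, 517, 709 and 664 CPM against 455, 433, 417 and 483, and Cyp2f2 at 1621, 1144, 1271 and 1245 CPM against 1102, 973, 901 and 997. Below all control livers at ZT0 was 1 gene (2.5%, against 1.72%), Cyp1b1, at 0.626 to 0.701 CPM against 0.750 to 1.89. Cyp2c23 and Cyp2j6, an epoxygenase of the Cyp2j cluster, were above at ZT4 (5.00%, against 1.74%, and none below, against 2.19%) and at ZT8 (5.00%, against 1.92%). Cyp2j6 stood at 87.8, 88.4, 89.6 and 85.9 CPM after the shift and 80.7, 61.7, 73.2 and 78.3 CPM in control at ZT8, and its mean over times had an adjusted p of 0.677 in edgeR.

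Cyp3a25 and Cyp3a59 were below at ZT8 (5.00%, against 2.38%), the first at 612 to 702 CPM against 706 to 850. At ZT16 there were 5 genes below all control livers (12.5%, against 2.32%) and 1 above (2.5%, against 2.56%). None of them passed the test (adjusted p at least 0.765 in edgeR). Cyp2c29 stood at 1199, 1196, 1148 and 1229 CPM after the shift against 1355, 1375, 1556 and 1707 in control, Cyp2c50 at 955, 1028, 920 and 1024 CPM against 1117, 1145, 1101 and 1171, Cyp2c54 at 355 to 437 CPM against 458 to 507, and Cyp2c55 at 3.64 to 7.04 CPM against 7.06 to 7.90. These are 4 of the 13 Cyp2c genes. Of the others, whose groups overlapped, Cyp2c37, Cyp2c38, Cyp2c39, Cyp2c68 and Cyp2c70 had log2 differences from -0.31 to -0.04. Those of Cyp2c23 and Cyp2c67 were 0.09 and 0.15, and those of Cyp2c40 and Cyp2c69 were 0.83 (SE 0.61) and 0.78 (SE 0.74). Cyp2c50 shares 8.93% of its 100-base stretches with other genes, mostly Cyp2c54. The remaining gene below all control livers was Cyp2r1, the vitamin D hydroxylase of liver, at 10.6, 12.3, 9.41 and 13.9 CPM against 14.7, 17.0, 17.7 and 20.3 (log2 difference -0.59, SE 0.19, adjusted p = 0.765 in edgeR). Cyp2d22 was above, at 266 to 292 CPM against 217 to 262. At ZT12 and ZT20 no member was above (2.4% and 1.76% of all genes) or below (2.13% and 1.83%).

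Regulators and partners of these enzymes were read from lists chosen with earlier results known. None of 8 xenobiotic receptors and their partners was called between arms at any time or in rhythm (edgeR). Among all genes tested a rhythm was called in 27.3% in control and 28.2% after the shift. In control 4 of the 8 had a rhythm, Rxra, Nr1h4, Nr1i2 (PXR) and Arnt, and after the shift 6, Hnf4a, Rxra, Ppara, Nr1i2, Arnt and Nr1i3 (CAR), a difference in counts that was not tested, with Nr1i2 peaking at ZT 13.1 and ZT 13.9. Of 13 genes for electron transfer and haem supply or, for Hmox1, haem breakdown, none was called between arms (edgeR). At most 0.289% of all genes were called at any time in 1 direction. A rhythm was called in 5 of the 13 in control and 7 after the shift. Por, the reductase that serves all these enzymes, peaked at ZT 12.2 and ZT 12.9 with log2 amplitudes of 0.91 and 1.09, and Alas1, the first enzyme of haem synthesis, at ZT 11.8 and ZT 12.3 with 1.51 and 1.199. All 4 of Dbp, Tef, Hlf and Nfil3, the factors of D-box elements, had a rhythm in both arms. Fitted peaks in control and after the shift were at ZT 10.7 and ZT 9.91 for Dbp and ZT 12.4 and ZT 11.7 for Tef. They were at ZT 14.5 and ZT 13.1 for Hlf and ZT 21.7 and ZT 21.4 for Nfil3. Dbp was called higher at ZT4 after the shift (log2 difference 2.59, SE 0.45, adjusted p = 0.0103 in edgeR). Of 6 tested sex-biased growth hormone targets outside these families, none was called between arms (edgeR).

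Promoter windows of 300 bases (250 before to 50 after the RefSeq start, GRCm38.p6) were found for 35 of the 40 genes, not for Cyp2c23, Cyp2c54, Cyp2d22, Cyp2g1 and Cyp2u1. They were searched on both strands for the D-box TTANGTAA of the PAR bZIP factors, the E-box CACGTG of the clock activators and the dioxin response element TNGCGTG of AHR, which do not overlap each other in these windows. For 4 genes a window lay over 1000 bases from the start of the gene in the count table, 9685 bases downstream for Cyp1a1, 17680 for Cyp2c29 and 18940 for Cyp2d9, and for 1 of the windows of Cyp2c39 upstream, so the bases before the table's start were not searched in Cyp1a1, Cyp2c29 and Cyp2d9. The D-box was in 1 of 35, Cyp2c38 (read on the opposite strand), and in 2.32% of 32851 promoters, the E-box in 1, Cyp2j6, and in 7.15%, and the response element in 1, Cyp2c68, and in 5.07%. Cyp2a5, with the strongest rhythm among abundant members, had no exact match to the 3 in its window. Only exact matches were searched, so a site that departs from a motif by 1 base was not counted, in Cyp2a5 or elsewhere. The 250 bases before the start are shown for the D-box and E-box genes, with the motif in capitals, for Cyp2c38 at chr19:39463076-39463325 and for Cyp2j6 at chr4:96553652-96553901, both on the minus strand.
Cyp2c38: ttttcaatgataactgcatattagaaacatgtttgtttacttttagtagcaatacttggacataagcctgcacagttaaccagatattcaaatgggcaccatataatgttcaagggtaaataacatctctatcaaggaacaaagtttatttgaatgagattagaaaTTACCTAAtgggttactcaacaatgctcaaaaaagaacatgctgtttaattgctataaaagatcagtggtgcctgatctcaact
Cyp2j6: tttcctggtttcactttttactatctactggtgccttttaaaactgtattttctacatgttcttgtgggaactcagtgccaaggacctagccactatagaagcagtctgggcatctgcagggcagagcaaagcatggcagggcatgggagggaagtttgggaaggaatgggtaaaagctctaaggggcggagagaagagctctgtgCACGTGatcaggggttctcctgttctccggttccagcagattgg
Cyp2c38 was rhythmic after the shift (log2 amplitude 0.40, peak ZT 3.17, adjusted p = 0.00707 in edgeR) and was at 47.5, 61.7, 64.0 and 74.8 CPM in control and 100.3, 79.5, 32.7 and 69.7 CPM after the shift at ZT4. Cyp2j6 was not called rhythmic in either arm. A match is a description of the letters in the window and shows no binding.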

How the data were processed

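Liver RNA was sequenced in 48 libraries, and reads were mapped and quantified by a sequencing provider, per the labels, on mm10, per the submitters' processing notes. The aligner and counter were not given in the sources used here. The authors deposited raw counts per gene as whole numbers, and FPKM values, which equalled the deposited count divided by gene length and 1 factor per library (largest deviation 5.33e-13% at 100 or more counts). Members and lists were chosen with earlier results of these data known.

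Differences were tested with edgeR 4.0.16 (R 4.3.3) on the counts: filterByExpr on 12 groups (14555 genes), TMM, robust quasi-likelihood fits over all 48 libraries, and Benjamini-Hochberg adjustment over all genes with a threshold of 0.05. Rhythm used a mean, cosine and sine of 24 h per arm (2 degrees of freedom), and the time course 5 degrees of freedom. Amplitudes and peaks come from least squares on log2 CPM (prior count 2) with 95% intervals. CPM, FPKM and log2 values were computed per library. Simulated counts held 100 genes changed at 1 time by a log2 difference of 1 and 100 by 2, of which 58% and 83% were called. Adjustment is stricter where fewer genes change, so these shares need not hold for the comparisons here. Alternatives used DESeq2 1.42.0, limma 3.58.1 (also on log2 FPKM plus 1 or 0.1), RLE normalization, other filters, a replicate block, the mitochondrial share and leaving out libraries. A count of 0 allows up to 3 counts. The genes given per library were those called between arms, the 5 with the smallest p for the mean difference, the 5 with the largest control amplitude among called genes (mean log2 CPM 1 or more), and the 3 with the highest FPKM, and others shown were chosen after their values were seen. Upstream windows of copies were aligned globally with Biopython 1.88. Serum metabolite data were not analysed here.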

Additional observations from a re-analysis of the deposited data

Results flagged for a closer look

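In 5 of 120 groups of 4 libraries, over the 10 genes given per library, 1 library lay far from the other 3 by Dixon's criterion, which chance meets in about 1 of 20 groups. At ZT4 in control, Cyp1a1 stood at 31.2 CPM in replicate 2 and at 1.17 to 1.71 CPM in the others, at a mitochondrial share of 7.35%. At ZT4 after the shift, Cyp2j6 stood at 98.7 CPM in replicate 1 and at 85.4 to 87.2 CPM in the others. At ZT20 in control, Cyp2g1 stood at 0.766 CPM in replicate 4 and at 0.272 to 0.293 CPM in the others. Cyp2e1 was low in 2 shifted livers, at 6868 CPM in ZT16 replicate 4 against 8484 to 8713 CPM, and at 2312 CPM in ZT20 replicate 2 against 5674 to 6602 CPM.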

How the results depend on the processing

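The count of members called at ZT8 was 1 and fell to 0 under RLE normalization, no filter on low counts, limma on log2 FPKM with either pseudocount, a replicate block, the 8 libraries of that time alone and without the libraries of high mitochondrial share. At ZT4 DESeq2 called 2. For the time course 1 member passed under DESeq2, limma on log2 CPM and the mitochondrial share as a covariate, and for the rhythm between arms 1 passed under a mean count of at least 10, DESeq2 and the mitochondrial covariate. With 1 library left out, the counts ran from 0 to 1 at ZT4, at ZT8, for the time course and for the rhythm between arms, from 8 to 13 for rhythm in control and 11 to 17 after the shift, stayed at 0 for the mean and the other times, and the share of counts in members ran from 2.54 to 2.58%. Over all genes, the rhythm calls ran from 3035 to 4401 in control and from 3727 to 4631 after the shift. Results that changed direction were Cyp2b9 at ZT4 (log2 difference -0.62 without phase shift replicate 1, up to 5.10 without another library) and ZT8 (0.52 without control replicate 3, down to -5.32), Cyp1a1 at ZT4 (0.10 without control replicate 2, down to -2.88), Cyp2a4 at ZT20 (-0.14 without phase shift replicate 2, up to 2.87), and the peak differences of Cyp2j9 (0.88 h) and Cyp3a13 (0.71 h) without the libraries of high mitochondrial share, a setting added for peak times after seeing the data. Beyond these, the cause was not tested. The replicate numbers gave no clear sign of pairing, though weak correlations cannot exclude a pairing or a shared batch. Over 24 pairs of the same number and time the correlation of deviations ran from -0.42 to 0.16 with a median of -0.06. It passed 0.1 in 4, namely replicate 4 at ZT4, ZT8 and ZT12 and replicate 3 at ZT20. With the replicate block 9 and 13 members had a rhythm, as without it, while the call at ZT8 was lost. Low counts limit Cyp1a1, Cyp1b1, Cyp2d11 and Cyp2g1, whose means lie at or under 2.19 CPM.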
